A study of Mus musculus with 6 samples.

Results

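MicroRNA genes are transcribed as long primary transcripts, alone, in clusters that share one transcript, or inside introns of other genes. Drosha with Dgcr8 cuts the hairpin out of the primary transcript and Dicer1 then frees the short mature microRNA, whose seed near its 5′ end pairs with target messages. In lymphocytes some of these genes are known regulators of development, proliferation and activation, while others are known from muscle, liver, epithelium or testis. The microRNA genes were the probe sets on the array whose annotation named 1 gene with a symbol of the form Mir followed by a digit or Mirlet, and the probe set with the highest mean over the 6 arrays was kept for each gene. They were 300 genes out of 23410 tested probe sets with a gene symbol. Another 61 probe sets that name a Mir gene together with another gene were left out, and 4 of the 300 genes are long host transcripts (Mir17hg, Mir99ahg, Mir100hg and Mir670hg) and not hairpin genes.

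The study asked whether the Y chromosome (ChrY) of the sires leaves a trace in daughters, who do not inherit it. The tested strain, B6-ChrYSJL, carries the ChrY of SJL on the C57BL/6J background, and its females were compared with wild-type C57BL/6J (B6) females. All were naive females aged 8 weeks from litters of both sexes, and every sample was CD4+TCRβ+ cells sorted from axillary, brachial and inguinal lymph nodes of 5 pooled mice. There were 3 pools of B6-ChrYSJL and 3 pools of B6, with 1 array per pool. The arrays (Affymetrix Mouse Gene 1.0 ST) carry probes against the genomic sequence of each hairpin gene, so a value can come from the primary transcript, an overlapping transcript or the precursor, and is not a measure of the mature microRNA. All values are RMA log2 intensities, in which a difference of 1 is a doubling, and log2 fold changes are B6-ChrYSJL minus B6. Probes of different genes bind with different strength, so the order of levels between genes is an order of signal and not of RNA amount, and a pool with fewer cells of a type cannot be told apart from one with less RNA per cell.

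The sorted cells carried T cell markers at high signal. All 6 measured T cell markers (Cd3d, Cd3e, Cd3g, Cd4, Cd28 and Cd5) had means between 10.8 and 12.5, and their log2 fold changes lay between −0.08 and 0.08. Cd8a averaged 6.40 in B6-ChrYSJL and 6.94 in B6 (log2 fold change −0.54) and Cd8b1 differed by −0.28, while the 4 measured B cell markers had log2 fold changes of 0.16 to 0.37. Over all probe sets, any pair of arrays had a Pearson's r between 0.991 and 0.993.

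Transcripts of 1212 olfactory and vomeronasal receptors, genes of sensory neurons, served as background. The median of their 6-array means was 4.29, and the 95th percentile, 5.98, was taken as the background level. Above it lay 111 of the 300 microRNA genes, or 37.0%, against 61.6% of all tested probe sets, and 189 did not lie above it. The mean levels ran without a gap across the background. Just above it were Mirlet7f-1 (6.02), Mir152 (6.02) and Mir146b (5.99), and just below it were Mir337 (5.96), Mir708 (5.96) and Mir107 (5.93).

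Mature sequences were found in RefSeq for 270 of the 300 genes and hairpins for 258. Of the 111 genes above background, 6 let-7 genes share the seed GAGGUAG, 5 genes (Mir15a, Mir15b, Mir16-2, Mir195a and Mir497) share AGCAGCA, 4 genes (Mir17, Mir20a, Mir93 and Mir106b) share AAAGUGC, and 3 genes (Mir25, Mir32 and Mir92b) share AUUGCAC. Members of the groups of Mir17, Mir25 and Mir15a are printed because each holds a gene that differed between the strains at an unadjusted p beside others that did not, so that products with one seed came from genes with unlike values. In the following lines the seed, bases 2 to 8, is in capitals, and positions are those of RefSeq on GRCm38.p6.
miR-17-5p (chr14:115043684-115043706, + strand): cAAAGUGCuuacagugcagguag
miR-20a-5p (chr14:115044183-115044205, + strand): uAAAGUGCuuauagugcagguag
miR-93-5p (chr5:138165574-138165596, − strand): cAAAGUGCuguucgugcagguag
miR-106b-5p (chr5:138165787-138165807, − strand): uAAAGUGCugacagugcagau
miR-25-3p (chr5:138165332-138165353, − strand): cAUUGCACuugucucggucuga
miR-92b-3p (chr3:89227126-89227147, − strand): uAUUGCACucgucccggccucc
miR-32-5p (chr4:56895272-56895293, − strand): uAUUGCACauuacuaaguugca
miR-15a-5p (chr14:61632075-61632096, − strand): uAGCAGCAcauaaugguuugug
miR-15b-5p (chr3:69009775-69009796, + strand): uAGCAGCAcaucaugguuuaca
miR-16-5p of Mir16-2 (chr3:69009918-69009939, + strand): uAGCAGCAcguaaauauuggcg

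The mature sequences in the next lines belong to 4 genes above background that kept an unadjusted p under 0.05 in every alternative analysis, and their seeds differ from one another and from those above.
miR-26b-5p (chr1:74394324-74394344, + strand): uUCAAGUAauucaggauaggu
miR-139-5p (chr7:101475382-101475403, + strand): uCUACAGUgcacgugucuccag
miR-681 (chr12:69763923-69763943, − strand): cAGCCUCGcuggcaggcagcu
miR-688 (chr15:102671802-102671821, − strand): uCGCAGGCgacuacuuauuc

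Among the 12 highest signals were Mir692-1 (10.4), Mir598 (10.2), Mir17 (9.62), Mir18 (9.01), Mir346 (8.97), Mir142 (8.75), Mir505 (8.72), Mir667 (8.71), Mir680-3 (8.58), Mir328 (8.54), Mir383 (8.48) and Mir677 (8.47). Of these, Mir17, Mir18 and Mir142 are known from lymphocytes: Mir17 and Mir18 lie in the Mir17-92 cluster, which drives lymphocyte proliferation, and Mir142 is a mark of blood cells. Mir677 lies inside Atp5b, a subunit of the mitochondrial ATP synthase, whose own level was 11.4. The other genes of this group are not known as T cell genes.

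**Figure D1:**
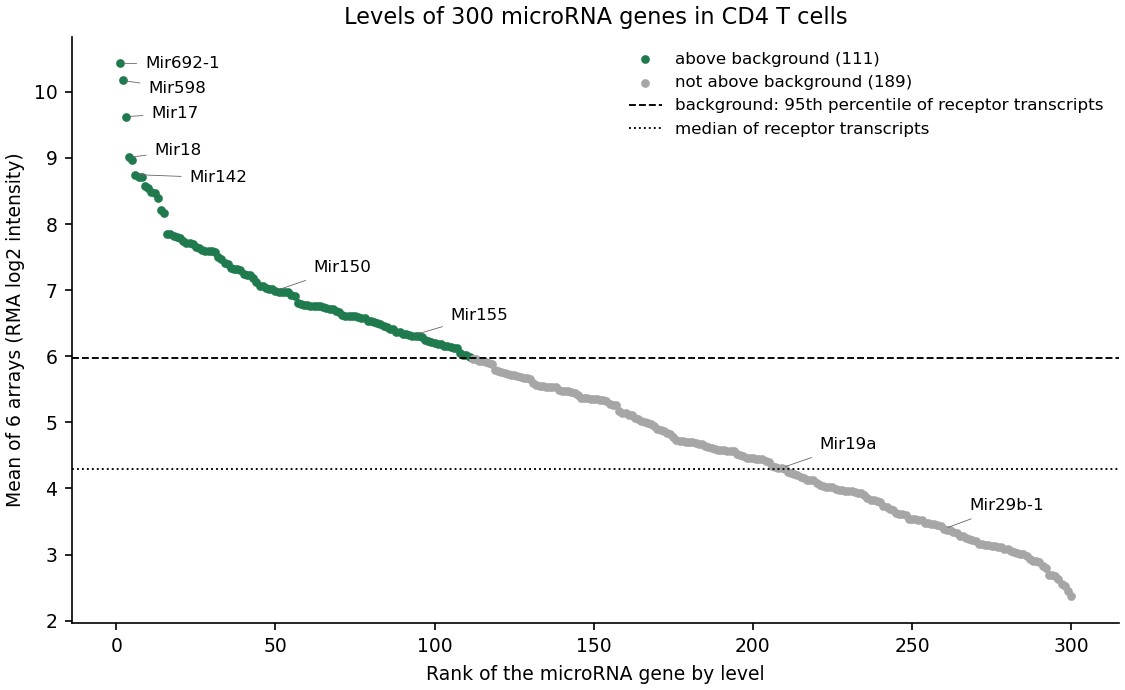
Mean of 6 arrays (RMA log2 intensity, vertical axis) of each of the 300 microRNA genes in order of level (horizontal axis); green points are the 111 genes above the background level of 5.98 (dashed line), grey points the other 189, and the dotted line is the median of the receptor transcripts, 4.29. The levels run from 10.4 to 2.37 with no gap at the background.

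Of 49 genes listed for known roles in T cells, 24 lay above background. Beside Mir17, Mir18 and Mir142 these included Mir210 (7.86), which responds to hypoxia, Mir20a (7.86), Mir181d (7.70) and Mir181c (7.64), whose family tunes the strength of T-cell receptor signals, Mir326 (7.12), which promotes Th17 cells, Mir342 (7.07), Mir150 (6.99), a mark of mature resting lymphocytes, and Mir155 (6.31), which rises on activation. The remaining ones above background were Mir99b (7.66), Mir212 (7.59), Mir19b-1 (7.32), Mir125a (7.01), Mir27a (6.75), Mir15a (6.73), Mir23a (6.61), Mir26b (6.61), Mir24-2 (6.52), Mir16-2 (6.46), Mir15b (6.18), Mir181b-2 (6.16) and Mir146b (5.99). The other 25 were not above background.

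Those 25 included genes well known from T cells. Mir181a-2 had a level of 5.74 and Mir181a-1 of 4.02, although the mature miR-181a is known from developing T cells. Mir146, which restrains NF-κB signalling, was at 3.60, Mir29a and Mir29b-1, which restrain interferon-γ production, were at 5.26 and 3.39, and Mir182, which interleukin 2 induces, was at 4.69. Mir31 (5.06), Mir10a (3.02), Mir10b (3.15), Mir221 (4.97), Mir222 (5.11), Mir132 (5.27), Mir16-1 (5.47), Mir19a (4.31), Mir26a-1 (4.78), Mir101b (4.89), Mir96 (5.14), Mir183 (3.17), Mir181b-1 (4.47), Mir301 (3.53), Mir301b (5.42), Mir99a (3.96), Mir100 (4.17), Mir125b-1 (4.71) and Mir125b-2 (3.03) made up the rest. At an unadjusted p under 0.05, Mir181a-2 (log2 fold change 0.21) and Mir182 (0.52) among the 25 were higher in B6-ChrYSJL and Mir16-1 (−0.17) was lower. Of all tested probe sets not above background, 5.84% were higher and 3.94% lower at that p.

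Genes known from other cell types were mostly dim, and 4 of 21 listed lay above background. These were Mir375 (6.75), known from pancreatic islets, Mir200a (6.20) of epithelium, Mir143 (6.16) of smooth muscle and fibroblasts, and Mir124a-2 (6.13) of neurons. Mir122 of liver (5.35), Mir1a-1 (2.90) and Mir206 (3.06) of muscle, Mir451a (4.45) and Mir144 (2.89) of red cells and Mir203 (3.72) of skin were not above it. None of 6 listed genes of a testis cluster on the X chromosome was above background, where their levels ran from 2.69 to 4.44. In the imprinted Dlk1-Dio3 region on chromosome 12, a cluster known from embryo, placenta and brain, 11 of 38 listed genes lay above background, led by Mir667 (8.71), Mir341 (7.80), Mir673 (7.71) and Mir666 (7.60). Of the 10 let-7 genes, which promote differentiation, 6 lay above background, from Mirlet7g (7.19) to Mirlet7f-1 (6.02). Of the 38 genes on the X chromosome, 4 did.

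Neighbours on the chromosome mostly lay on the same side of the background, but not in every cluster. Of the 258 genes with a RefSeq hairpin, 130 lay within 10 kb of each other and on one strand, in 40 clusters of at least 2 genes. All genes were above background in 8 clusters and none in 20, while 12 clusters had genes on both sides. In the Mir17-92 cluster Mir17, Mir18, Mir20a and Mir19b-1 were at 7.32 to 9.62, and Mir19a, which lies between Mir18 and Mir20a, was at 4.31.

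The base composition of the hairpin moved with the level. Over the 258 genes with a RefSeq hairpin, the share of G and C bases and the 6-array mean had a Spearman rho of 0.70 and a Pearson r of 0.68, with genes and not samples as points on the same 6 arrays. Among the 89 of them above background, rho was 0.19 and r 0.10. That cut was made on the level itself and narrows its range, so these values cannot be set against those over 258. Hairpin length and level had a rho of 0.19 over the 258. Of the 86 genes with the lowest GC share (28.4% to 43.9%), 11 lay above background, against 18 of the 86 in the middle and 60 of the 86 with the highest share (52.1% to 69.2%). Some genes known from T cells were above background with a share in the lowest group, such as Mir142 (42.2%), Mir18 (43.8%) and Mir155 (43.1%), and Mir17 had 45.2%. The hairpins of Mir142 and Mir210, genes above background with unlike shares (42.2% and 69.1%), are printed with every G and C in capitals, from RefSeq on GRCm38.p6, beside that of Mir19a, which has nearly the share of Mir142 and was not above background.
Mir142 (chr11:87756864-87756927, + strand): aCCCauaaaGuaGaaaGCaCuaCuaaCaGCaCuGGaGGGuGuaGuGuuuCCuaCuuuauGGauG
Mir210 (chr7:141221384-141221493, − strand): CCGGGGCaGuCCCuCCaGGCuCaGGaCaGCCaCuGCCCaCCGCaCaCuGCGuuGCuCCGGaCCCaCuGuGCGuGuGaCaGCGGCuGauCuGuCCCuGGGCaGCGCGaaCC
Mir19a (chr14:115044000-115044081, + strand): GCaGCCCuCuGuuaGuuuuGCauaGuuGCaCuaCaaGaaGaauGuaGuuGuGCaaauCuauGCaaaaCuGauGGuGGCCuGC

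**Figure D2:**
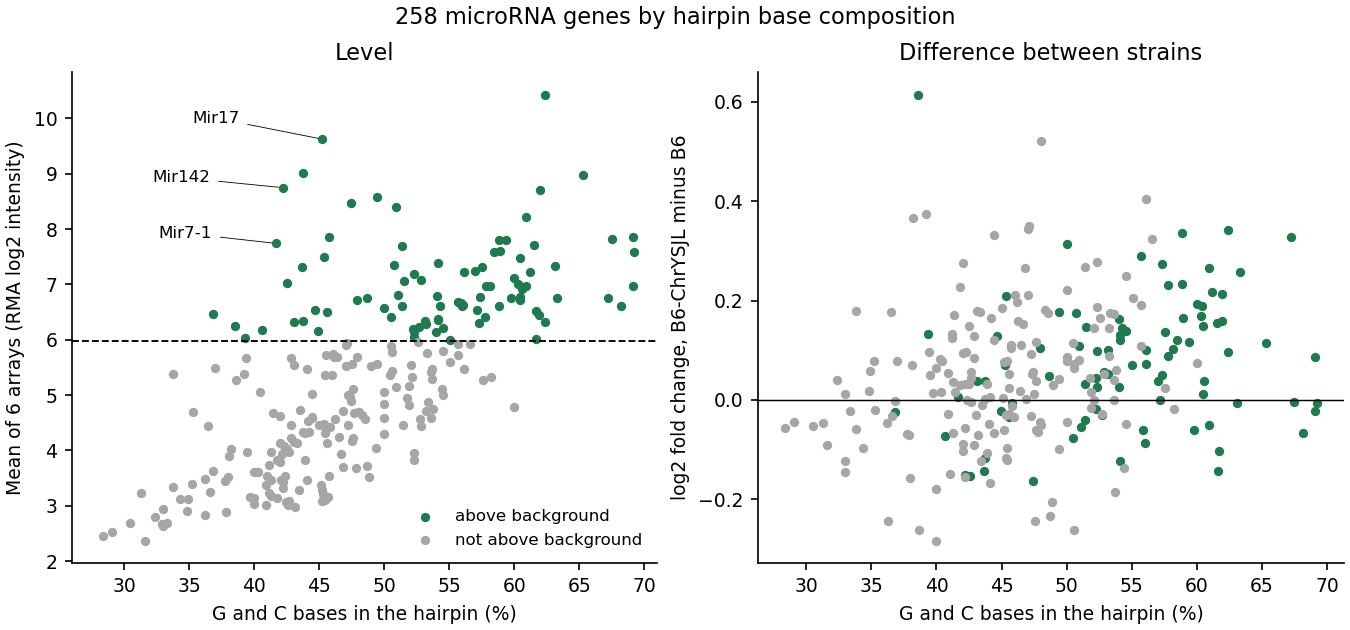
Share of G and C bases in the hairpin (horizontal axis, %) against the mean of 6 arrays (left, RMA log2 intensity) and against the log2 fold change, B6-ChrYSJL minus B6 (right), for 258 genes; green points lie above the background level (dashed line, 5.98), grey points do not. The level climbs with the GC share over all 258 genes (rho 0.70). Among those above background, a cut made on the level itself, rho is 0.19. The log2 fold change has a rho of 0.29 over all.

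The comparison of the strains asks whether the ChrY of the sire goes with other levels of these genes in T cells of daughters. No microRNA gene passed an FDR of 0.05 (limma, Benjamini-Hochberg over all 23410 probe sets), where 0.0171% of all tested probe sets (4) did. The smallest adjusted p was 0.177, for Mir143. At an unadjusted p under 0.05 stood 48 of the 300 genes, or 16.0%, against 10.6% of all tested probe sets. Without B6-ChrYSJL replicate 3, 30 of the 300 did, while the shares given here are those of the fit on all 6 arrays. Of the 48, 41 were higher in B6-ChrYSJL, where the share of all tested probe sets was 4.69%, and 7 were lower, where it was 5.92%.

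Among the 111 genes above background, 21 had an unadjusted p under 0.05, 20 higher in B6-ChrYSJL and 1 lower, against 3.98% higher and 7.15% lower for all tested probe sets above background. The 20 include Mir32, whose B6 mean lay below the background level. Without B6-ChrYSJL replicate 3, 12 of the 111 had an unadjusted p under 0.05. The shares given here are those of the fit on all 6 arrays, in which 11.1% of all tested probe sets above background had one in either direction. Counting pools that do not overlap, 24 genes were higher in all B6-ChrYSJL pools than in any B6 pool and 2 were lower in all, against 7.96% and 12.2% of all tested probe sets above background. The median log2 fold change was 0.08, against −0.02 over all tested probe sets above background. Above 0 were 79 of the 111, against 44.4% of all tested probe sets above background. Among the 189 genes not above background, 21 were higher and 6 lower at an unadjusted p, with a median log2 fold change of 0.03, against 5.84% higher, 3.94% lower and a median of 0.02 for all tested probe sets not above background.

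The shift was carried by 2 of the 3 B6-ChrYSJL pools. Over the 111 genes above background, the median deviation from each gene's own 6-array mean was 0.09, −0.02 and 0.07 in B6-ChrYSJL pools 1, 2 and 3, against −0.03, −0.04 and −0.05 in B6 pools 1, 2 and 3. B6-ChrYSJL pool 2 was thus the lowest of its group and still above all 3 B6 pools. The receptor transcripts used for the background deviated by 0.02, −0.06 and 0.02 in the B6-ChrYSJL pools and by 0.01, 0.01 and −0.01 in the B6 pools, so that pool 2 was also low there. Leaving out B6-ChrYSJL pool 1 gave a median log2 fold change of 0.05 and leaving out pool 2 gave 0.11.

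**Figure D3:**
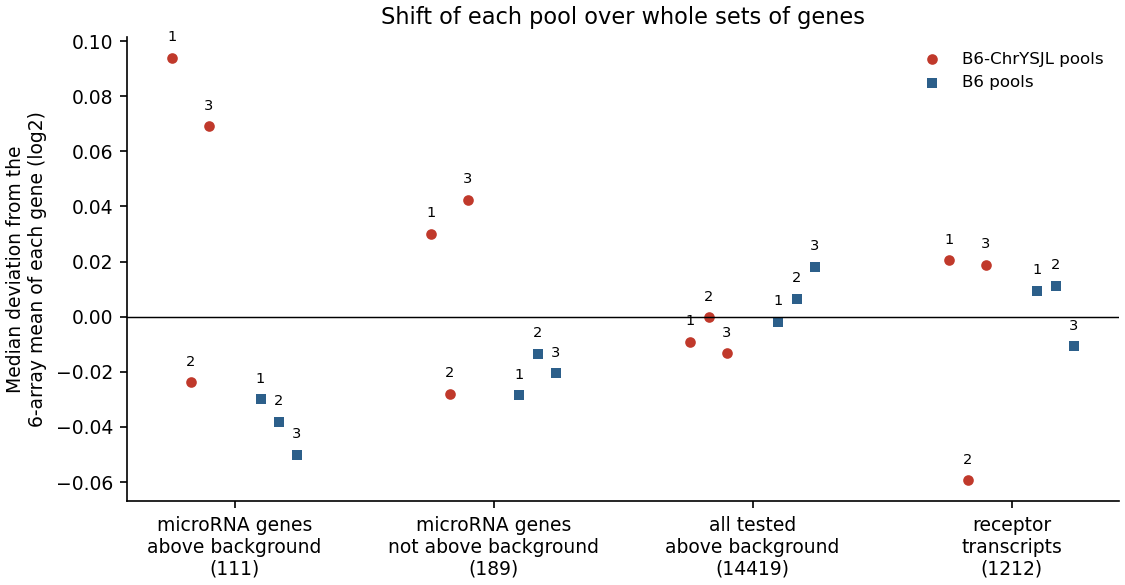
Median deviation of each pool from the genes' own 6-array means (vertical axis, log2) for 4 sets of genes, with their number under the axis; red circles are B6-ChrYSJL pools and blue squares B6 pools, each with its replicate number. For microRNA genes above background B6-ChrYSJL pools 1 and 3 stand at 0.09 and 0.07 and pool 2 at −0.02, and the B6 pools at −0.03 to −0.05.

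The GC share moved with the difference too. For the genes above background the median log2 fold change was −0.03 in the group with the lowest GC share (11 genes), 0.06 in the middle group (18) and 0.10 in the highest (60), and for all genes with a hairpin it was 0.01, 0.05 and 0.10 in the same order. In the highest group 18 of 86 genes were higher and 1 lower at an unadjusted p, in the middle group 11 and 4, and in the lowest group 3 and 0, beside 4.69% higher and 5.92% lower of all tested probe sets. Over genes, rho between GC share and log2 fold change was 0.29 (258 genes) and 0.25 above background (89 genes). Its part in the difference between the strains was not tested.

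**Figure D4:**
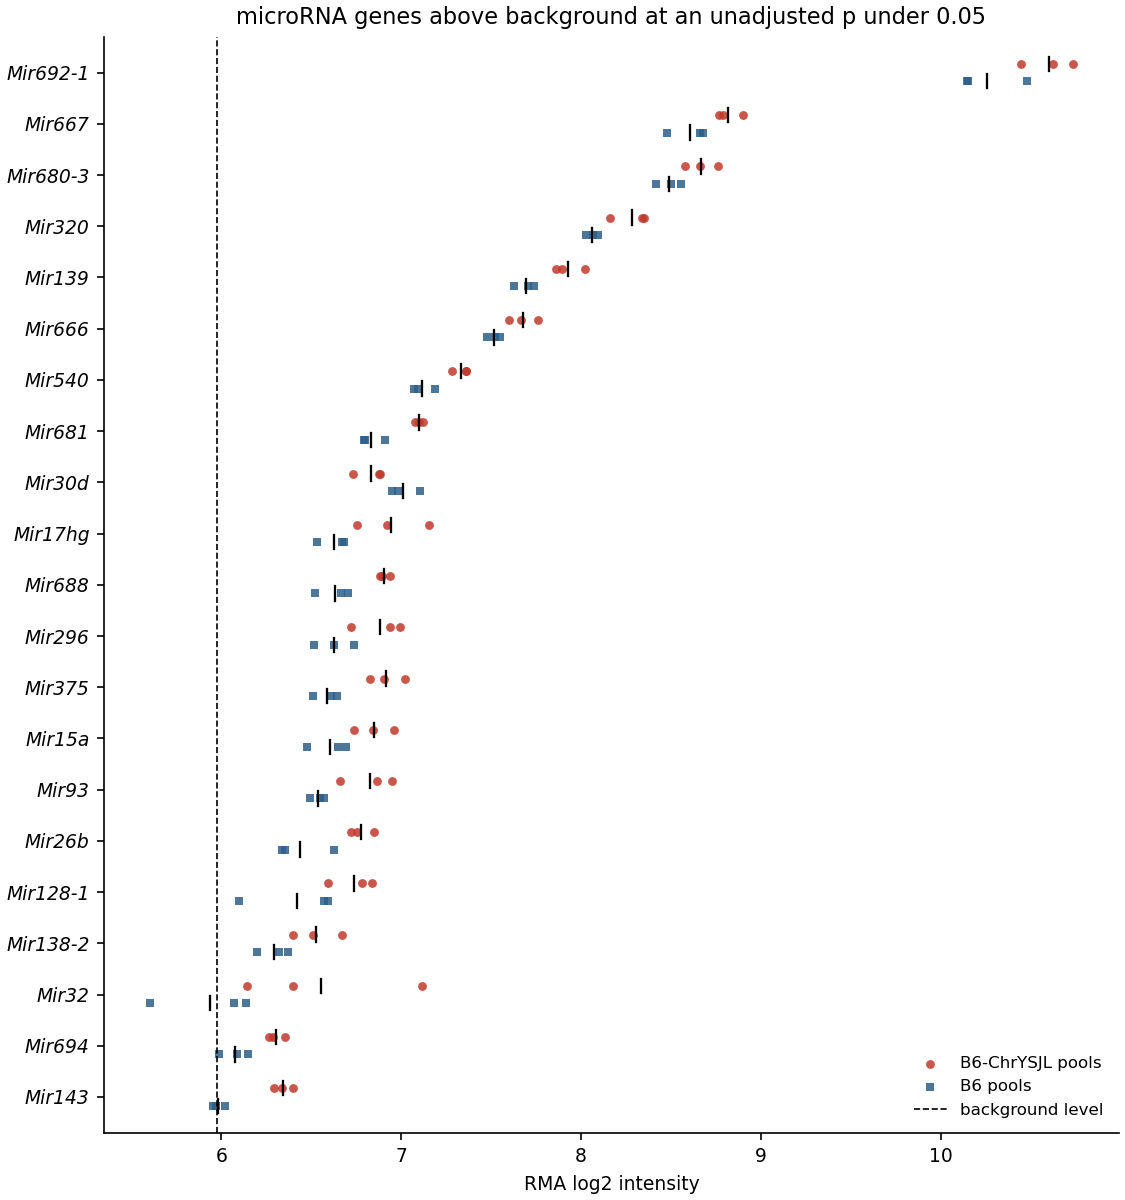
RMA log2 intensity (horizontal axis) of each pool for the 21 microRNA genes above background at an unadjusted p under 0.05, in order of level; red circles are B6-ChrYSJL pools, blue squares beneath them B6 pools, black bars the group means and the dashed line the background, 5.98. All genes but Mir30d have the higher mean in B6-ChrYSJL, and the pools overlap for Mir692-1, Mir296 and Mir128-1.

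Of the 24 listed T cell genes above background, 2 were higher at an unadjusted p, Mir15a and Mir26b, and none was lower, beside 3.98% and 7.15% of all tested probe sets above background. Of the 8 genes above background in the list of the Mir17-92 cluster and its paralogues, Mir93 and Mir17hg were higher and none was lower. Mir15a, which limits the survival factor Bcl2, had 6.84, 6.74 and 6.96 in B6-ChrYSJL pools, against 6.48, 6.70 and 6.65 in B6 pools (log2 fold change 0.24, SE 0.09, limma adjusted p = 0.404). Mir26b had 6.85, 6.72 and 6.75 in B6-ChrYSJL pools, against 6.34, 6.63 and 6.35 in B6 pools, a log2 fold change of 0.34 or 1.26-fold (SE 0.09, limma adjusted p = 0.330). Mir93, a gene of the Mir106b-25 cluster that promotes cell cycle entry, had 6.95, 6.66 and 6.87 in B6-ChrYSJL pools, against 6.55, 6.49 and 6.57 in B6 pools (0.29, SE 0.09). For these 3 genes no B6-ChrYSJL pool overlapped the B6 pools, and B6 pool 2 came closest for Mir15a and Mir26b. Mir17hg, the host transcript of the Mir17-92 cluster, had 7.15, 6.75 and 6.92 in B6-ChrYSJL pools, against 6.68, 6.53 and 6.67 in B6 pools (0.31, SE 0.10).

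Several genes that share a seed or a transcript with these had values nearer 0 or below it. Mir17 had 9.71, 9.57 and 9.69 in B6-ChrYSJL pools, against 9.45, 9.83 and 9.49 in B6 pools, so that the groups overlapped (log2 fold change 0.07, SE 0.11). The 4 hairpins of its cluster above background had log2 fold changes between −0.14 and 0.07, while the host transcript Mir17hg was at 0.31. Mir25 and Mir106b, in one intronic cluster with Mir93, had log2 fold changes of −0.01 and 0.05. Mir16-1, which shares its primary transcript with Mir15a and was not above background (5.47), had the lower mean in B6-ChrYSJL (5.38 against 5.55 in B6, log2 fold change −0.17, SE 0.07), and Mir15b and Mir16-2, of the same seed on chromosome 3, were at −0.07 and −0.03. The other 2 genes above background with that seed, Mir195a and Mir497 on chromosome 11, were at 0.15 and 0.16 (SE 0.08 each), without an unadjusted p under 0.05. Mir181c, Mir181d, Mir150, Mir155, Mir142 and Mir342 did not pass an unadjusted p of 0.05, with log2 fold changes between −0.15 and 0.16 and standard errors of 0.08 to 0.13.

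Mir143 and Mir375, known from other tissues, had the smallest p-values above background. The 21 listed genes of other cell types went both ways, 10 above 0 and 11 below. At an unadjusted p under 0.05, 4 of them were higher and 2 lower, beside 4.69% and 5.92% of all tested probe sets. Not above background, Mir122 (0.23) and Mir200c (0.21) were higher and Mir203 (−0.23) and Mir133a-1 (−0.23) lower. Mir143, known from smooth muscle and fibroblasts, had 6.34, 6.29 and 6.40 in B6-ChrYSJL pools, against 5.97, 6.02 and 5.96 in B6 pools. The B6 pools lay at the background level and all 3 B6-ChrYSJL pools lay above it (log2 fold change 0.36 or 1.29-fold, SE 0.06, limma adjusted p = 0.177). Of 6 stromal and endothelial markers, 3 were higher in B6-ChrYSJL at an unadjusted p under 0.05: Col1a2 (0.18), Col3a1 (0.19) and Pdpn (0.20), beside 4.69% of all tested probe sets. In B6 these 3 averaged 6.45, 6.41 and 6.04, not far above background. The log2 fold changes of the other 3, Col1a1, Pecam1 and Cdh5, were between −0.02 and 0.04. The mean log2 level of the 6 markers was 7.11, 7.06 and 7.02 in B6-ChrYSJL pools, against 6.98, 6.96 and 6.95 in B6 pools, with no overlap. The log2 of their summed level, most of which is Pecam1, ran from 10.5 to 10.6 in both groups. Their part in the Mir143 value was not tested. Mir375, known from pancreatic islets, had 7.02, 6.91 and 6.83 in B6-ChrYSJL pools, against 6.51, 6.61 and 6.65 in B6 pools (0.33, SE 0.08, limma adjusted p = 0.286), with no overlap.

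Mir32 had the highest log2 fold change above background, 0.61 (SE 0.24). Its values were 6.40, 6.15 and 7.12 in B6-ChrYSJL pools, against 5.61, 6.07 and 6.14 in B6 pools. The groups nearly met, B6-ChrYSJL pool 3 stood far above the others and B6 pool 1 was below background. The mean of the B6 pools was also below background, so Mir32 lay above it only through the B6-ChrYSJL pools. Without B6-ChrYSJL pool 3, or without B6 pool 1, it no longer had an unadjusted p under 0.05. Mir25 and Mir92b, with the same seed, had log2 fold changes of −0.01 and −0.004.

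Most of the other higher genes are not known from T cells. Mir681, which lies inside Cdkl1, had 7.10, 7.08 and 7.12 in B6-ChrYSJL pools, against 6.91, 6.80 and 6.80 in B6 pools (log2 fold change 0.27, SE 0.07). Mir688 had 6.89, 6.88 and 6.94 in B6-ChrYSJL pools, against 6.71, 6.66 and 6.52 in B6 pools (0.27, SE 0.07). In both the B6-ChrYSJL pools were close together and apart from B6. Mir692-1, the highest signal of all, had 10.4, 10.7 and 10.6 in B6-ChrYSJL pools, against 10.5, 10.2 and 10.1 in B6 pools, so that B6-ChrYSJL pool 1 fell below B6 pool 1 (0.34, SE 0.11). Mir139, inside the phosphodiesterase gene Pde2a, had 8.02, 7.86 and 7.89 in B6-ChrYSJL pools, against 7.71, 7.74 and 7.63 in B6 pools (0.23, SE 0.07). Mir694 differed by 0.23, Mir138-2 by 0.23, Mir296 by 0.26, Mir680-3 by 0.18 and Mir320, whose hairpin is made without Dgcr8, by 0.22.

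In the Dlk1-Dio3 region 3 of the 11 listed genes above background were higher at an unadjusted p, Mir667 (0.21), Mir666 (0.16) and Mir540 (0.22), and none was lower, beside 3.98% and 7.15% of all tested probe sets above background. Mir666 lost that p in 9 of the 16 alternatives. Mir540 had 7.36, 7.29 and 7.36 in B6-ChrYSJL pools, against 7.19, 7.10 and 7.07 in B6 pools. Among the 27 listed genes of the region not above background, Mir323 had a log2 fold change of 0.28 and Mir487b of −0.24, each at an unadjusted p under 0.05. Mir299a and Mir496a, in one cluster of 29 genes with Mir667, were not on the list. In that cluster 3 genes were higher and 1 lower, beside 4.69% and 5.92% of all tested probe sets.

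The lower side held few genes. Mir30d had 6.73, 6.88 and 6.88 in B6-ChrYSJL pools, against 6.95, 7.11 and 6.98 in B6 pools (log2 fold change −0.18, SE 0.08, limma adjusted p = 0.459), with no overlap. It lost its unadjusted p under 0.05 in 7 of the 16 alternatives. The 5 next lowest above background were Mir677 (−0.16), Mirlet7a-1 (−0.15), Mir142 (−0.15), Mir152 (−0.14) and Mir19b-1 (−0.14), none at an unadjusted p under 0.05. Mir142 had 8.74, 8.72 and 8.56 in B6-ChrYSJL pools, against 8.87, 8.94 and 8.66 in B6 pools, and the groups overlapped.

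The study listed microRNAs for sperm of these strains, and 12 genes of that list were among the 300. Of these 5 lay above background, and 4 were higher in T cells of B6-ChrYSJL females at an unadjusted p: Mir320 (0.22), Mir375 (0.33), Mir128-1 (0.31) and, just below background, Mir128-2 (0.32), where 4.69% of all tested probe sets were higher. One, Mir192, was lower (−0.26) and not above background (5.44), where 5.92% of all tested probe sets were lower. The values in sperm were not compared with these. The remaining 7 had log2 fold changes between −0.21 and 0.18. Mir128-1 and Mir128-2 both stand for the listed miR-128. Mir128-1, which is known from brain, had 6.60, 6.78 and 6.84 in B6-ChrYSJL pools, against 6.60, 6.57 and 6.10 in B6 pools. It lost its unadjusted p under 0.05 in 9 of the 16 alternatives, among them those without B6 pool 3, B6-ChrYSJL pool 2 or B6-ChrYSJL pool 3.

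The log2 fold changes of host genes showed little relation to those of the microRNA genes inside them. Of the 258 genes with a RefSeq hairpin, 83 lay within a protein-coding gene and on its strand, 32 of them above background. Another 41 lay in a long non-coding RNA gene, 6 of them above, and 103 had no host, 36 of them above. A further 10 lay only in a gene of the other strand and 21 in a gene of unknown strand. Where the host was measured and above background, 26 of 57 microRNA genes were above background, and where the host was not, 7 of 33. Host and microRNA gene had a rho of 0.30 for the level and −0.09 for the log2 fold change over 90 pairs, in which several microRNA genes share a host. The median SE of the 90 microRNA genes was 0.09 beside a median log2 fold change of 0.05, so a relation could be missed. Mcm7, a subunit of the replicative helicase that holds Mir25, Mir93 and Mir106b in an intron, averaged 8.37 in B6-ChrYSJL and 8.60 in B6 (log2 fold change −0.23, SE 0.07, limma adjusted p = 0.368), while Mir93 was at 0.29. Of the 7 higher genes above background with a measured host, 4 had a host with a log2 fold change below 0, namely Mir139 (Pde2a, −0.14), Mir26b (Ctdsp1, −0.14), Mir138-2 (Nup93, −0.08) and Mir93. Of all 71 measured hosts 30 were below 0, and of all tested probe sets above background 8014 of 14419 were. The 7 leave out Mir15a, which was not placed in a host. Dleu2, the host of Mir16-1, was at 0.02 with a level of 2.71, below background. Cdkl1, the host of Mir681, was at 0.19 with a level of 4.96, below background.

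**Figure D5:**
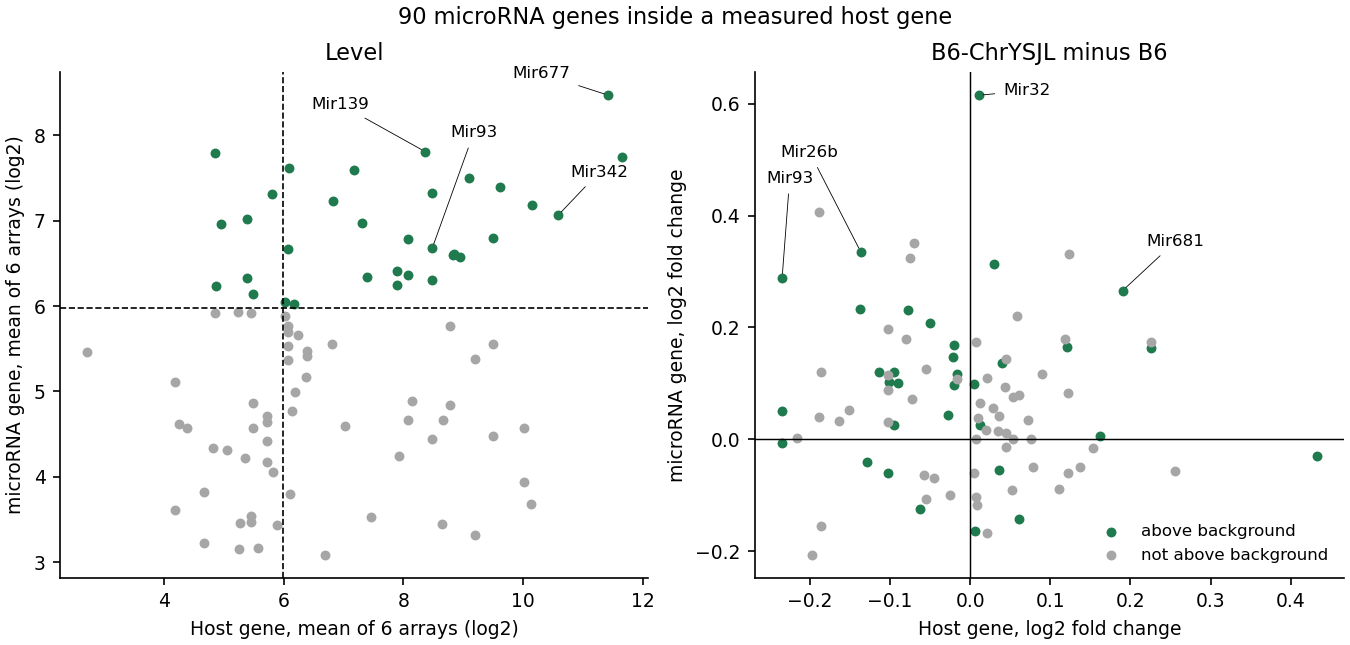
Level (left, mean of 6 arrays, log2) and log2 fold change (right, B6-ChrYSJL minus B6) of 90 microRNA genes (vertical axes) against those of the host gene around them (horizontal axes); green points are microRNA genes above background and dashed lines the background level, 5.98. The levels have a rho of 0.30 and the log2 fold changes of −0.09, with Mir93 at 0.29 over a host at −0.23.

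The genes that make and load microRNAs were mostly above background. Of 25 measured, 22 were above background, and the median log2 fold change was −0.03. Dicer1, which cuts the precursor, averaged 9.19 in B6-ChrYSJL and 9.38 in B6 (−0.19), Srrt, a partner of the nuclear cap complex in primary transcript processing, 8.90 in B6-ChrYSJL and 9.15 in B6 (−0.25), and Dis3l2, which degrades uridylated let-7 precursors, 7.77 in B6-ChrYSJL and 7.96 in B6 (−0.19). These 3 were lower and Lin28a, which blocks let-7 maturation, was higher (0.28) at an unadjusted p under 0.05, and none passed an FDR of 0.05. Of all tested probe sets, 5.92% were lower and 4.69% higher at that p. The Srrt pools of the strains overlapped, and Lin28a, with means of 6.54 in B6-ChrYSJL and 6.26 in B6, was not far above background. Drosha and Dgcr8 had log2 fold changes of −0.11 and 0.03.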

How the data were processed

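RNA of the 6 pools was hybridised as amplified cDNA (50 ng of RNA per pool). The authors processed the array signals with RMA in Partek, and the deposited values are background-corrected, quantile-normalised log2 intensities, 1 per probe set and array; GCOS and mm9 also stand in the submitters' processing notes. They were used as they are. Of 35556 probe sets, 21789 had 1 gene symbol and 1621 several, and these 23410 were tested; 12146 without a symbol were not.

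limma 3.58.1 in R 4.3.3 (lmFit, eBayes, no block) gave B6-ChrYSJL minus B6 with Benjamini-Hochberg adjustment over all tested probe sets. "Higher" and "lower" refer to an unadjusted p under 0.05 unless an FDR is named. Precision is limited by having 3 arrays in each group, for which exact permutation gives no p under 0.1. RefSeq tables for GRCm38.p6 gave sequences, neighbours and hosts.

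Named were the 12 highest levels, genes above background at an unadjusted p under 0.05, the 6 highest and 6 lowest log2 fold changes there, listed T cell and cell type genes, the 3 on each side of the background, and hosts; other names were chosen after their values were seen. The members and lists were chosen with earlier results of these data known. The fit was tested on simulated data. Figures used Python 3.11.15 and matplotlib 3.10.9. Alternatives were other variance models, filters, normalisations, a replicate block, other background levels and each pool left out.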

Additional observations from a re-analysis of the deposited data

How the results depend on the processing

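No microRNA gene passed an FDR of 0.05 under any of the 16 alternatives, where the smallest adjusted p ran from 0.0869 (only probe sets above background tested) to 0.543 (without B6-ChrYSJL replicate 3). The number of microRNA genes above background was 57 with the 99th percentile of the receptor transcripts as the level and 210 with their median, and 110 to 112 with 1 pool left out. Genes at an unadjusted p numbered 30 to 49 with 1 pool left out, lowest without B6-ChrYSJL replicate 3, and 33 without moderated variances. The shares of all tested probe sets printed above belong to the main fit on all 6 arrays. These counts and the next therefore do not show whether an excess over all tested probe sets remained. Among the 111 above background, the count was 12 to 27 with 1 pool left out and 14 without moderated variances, and the median log2 fold change was 0.05 to 0.11. The cause was not tested. The count over all genes was not run with only probe sets above background, since the dim genes are not in it. Of the 21 genes above background at an unadjusted p, 9 (Mir139, Mir143, Mir26b, Mir375, Mir540, Mir681, Mir688, Mir694 and Mir93) stayed under 0.05 in all 16 alternatives, and the other 12 did not in at least 1. Same-numbered pools of the strains did not deviate together (correlations of −0.01, −0.03 and 0.00), so the numbers do not pair the pools, and with the replicate number as a block 37 genes, 18 of them above background, had an unadjusted p under 0.05. Levels near 5.98 cannot be told apart from background signal.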
